A study of Homo sapiens with 3 samples.

Results

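The genes described here are NLRP12 and 9 genes of the inflammasome pathway of myeloid cells, namely NLRP1, NLRP3, NLRC4, NAIP, AIM2, PYCARD, CASP1, GSDMD and IL1B. NLRP12 was chosen by its counts, which rose with dose in these libraries, so its values are given as a description, without a test. The other 9 genes were listed for their place in the pathway. All 10 were found by Entrez identifier among the 25702 genes of the deposited count files, and 9 of them had at least 10 counts in at least 1 library, as did 12879 genes in all. AIM2 did not.

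Molm13 cells are an established line of human acute myeloid leukemia, with an internal tandem duplication in the receptor tyrosine kinase FLT3. Asynchronous Molm13 cells were exposed for 6 h to DMSO, the vehicle, or to pyrvinium, an anthelmintic drug, at 50 nM or at 100 nM, and RNA was sequenced from 1 library per condition. All 3 libraries come from the same cell line, and the DMSO library is the control of both doses, so the comparisons at the 2 doses are not independent. No difference below could therefore be checked against replicates. Tests on the reads compare libraries rather than conditions, and every interval covers counting error only.

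Inflammasomes are cytosolic protein complexes with which myeloid cells respond to microbes and to damage. A sensor, often of the NOD-like receptor family, recruits the adaptor ASC, and ASC gathers pro-caspase-1, which is then cleaved to the active protease. Caspase-1 matures interleukin 1 beta and interleukin 18 and cleaves gasdermin D, which opens pores in the plasma membrane, a form of cell death called pyroptosis. NLRP12 is a NOD-like receptor expressed mainly in myeloid cells, and it has been described both as a brake on NF-kappaB signalling and as an inflammasome sensor. In bulk RNA, a change in the number of cells that express a gene and a change in RNA per cell cannot be told apart.

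The libraries held 22677038 to 24075123 counts on genes, and counts were seen on 15355 to 15685 genes. A count of 3, taken as the floor, corresponded to 0.125 to 0.132 counts-per-million (CPM, the count scaled to library size). Of 12 myeloid markers, 11 passed the count filter, and they were led by FLT3, LYZ and CEBPA. LYZ, the lysozyme gene, had 7607, 7067 and 7768 counts in the DMSO, 50 nM and 100 nM libraries. FLT3 had 6304, 9012 and 11181 (log2 fold change 0.77 at 100 nM). MPO, the myeloperoxidase gene, had 291, 367 and 450 (0.57), and SPI1, which encodes the myeloid transcription factor PU.1, had 2981, 2667 and 2491 (-0.32), both named with their values known. ANPEP, which encodes the myeloid surface antigen CD13, had 0, 2 and 0 counts, under the floor of 3 in every library. Over 10 markers of T cells, B cells, erythroid cells and megakaryocytes, the summed counts were 34, 44 and 22, with 6, 3 and 4 of the 10 at 0. Of the 44 counts in the 50 nM library, 16 were on HBB, a globin gene at 0 in the other 2 libraries. Whether these few counts had a part in the values below was not tested.

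NLRP12 lies on the minus strand of chromosome 19, at chr19:54296838-54327648 in hg19, where the deposited annotation gives it 11 exon intervals and a total length of 5101 bases. It had 107 counts with DMSO, 288 with 50 nM pyrvinium and 478 with 100 nM. After scaling to library size these are 4.62, 12.7 and 19.8 CPM, so each dose stood above the one before. Against DMSO the 50 nM library was 2.75-fold higher (95% counting interval 2.20 to 3.47), a log2 fold change of 1.46. At 100 nM NLRP12 was 4.28-fold higher (3.48 to 5.35), a log2 fold change of 2.10. The step from 50 nM to 100 nM was a log2 fold change of 0.64, with a counting interval from 0.43 to 0.86. Among the 12879 genes tested, this was the 46th highest log2 fold change at 100 nM and the 86th at 50 nM. Among the 11049 genes with at least 50 counts in their highest library it ranked 5th and 9th. These ranks restate the values by which the gene was picked.

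The sequence just upstream of NLRP12 is shown for the letter matches it holds. Among the 6 of these genes with a promoter entry in RefSeq, it has the only match to GAGGAAGT, the PU.1 string searched. It also has 1 of 2 matches to TGATGNAA, the letters of a C/EBP-ATF response element (CARE). Over all genes with a promoter entry, 2.65% held the PU.1 letters and 3.89% the CARE letters. Other forms of a PU.1 site were not searched. CARE is the composite element bound by ATF4 with its C/EBP partners. The 170 bases, chr19:54327649-54327818 on the minus strand of GRCh37, end next to the first base of the deposited gene. They come from the RefSeq promoter entry of NLRP12, whose 250 upstream bases matched the minus strand of chromosome 19 of GRCh37 at 1 place. The other chromosomes were not searched for it. The first run of capitals is the CARE match and the second is the PU.1 match. Both motifs read on the opposite strand, as TGATGAAA and GAGGAAGT.
NLRP12: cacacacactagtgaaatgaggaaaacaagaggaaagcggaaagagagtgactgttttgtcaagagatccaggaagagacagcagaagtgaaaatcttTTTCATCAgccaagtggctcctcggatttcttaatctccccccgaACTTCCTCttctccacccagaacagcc

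Short windows around the other CARE matches are shown to set them beside that of NLRP12. NLRP3, an inflammasome sensor whose counts differed little between libraries, had a match within the window chr1:247579383-247579414, printed on the plus strand of GRCh37. CHAC1, the gene with the profile most like that of NLRP12, had one within chr15:41245448-41245479, also printed on the plus strand. The NLRP3 match reads on the printed strand, as TGATGTAA, and the CHAC1 match on the opposite strand, as TGATGCAA. Capitals mark the match, 80 bases before the RefSeq start of NLRP3 and 209 before that of CHAC1, compared with 152 bases for NLRP12. The RefSeq start of NLRP12 lies 80 bases inside the deposited gene, so its CARE match is 72 bases before the deposited start.
NLRP3: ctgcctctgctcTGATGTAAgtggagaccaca
CHAC1: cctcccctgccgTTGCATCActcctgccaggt

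Motifs were searched on both strands in the 250 bases before each RefSeq start, over 35116 promoters of 27305 genes. Of the 10 genes, 6 had a promoter entry, namely NLRP12, NLRP3, NLRC4, AIM2, PYCARD and IL1B. A gene was taken to hold a motif when any of its promoters did. The CARE letters TGATGNAA were found in 3.14% of all promoters and 3.89% of genes, among them NLRP12 and NLRP3. The PU.1 letters GAGGAAGT were found in 2.17% of promoters and 2.65% of genes and, of the 6 genes, in NLRP12 alone. The C/EBP letters TTGCNNAA were found in 9.05% of promoters and 11% of genes, among them NLRP12, NLRC4 and IL1B. In NLRP12 the C/EBP match lies inside the first exon of the deposited gene and overlaps neither of the matches printed above. The AP-1 letters TGANTCA were found in 6.57% of promoters and 8.06% of genes and, of the 6, in AIM2. The kappaB letters GGGNNNTTC, the first 9 bases of the site, were found in 13.3% of promoters, 15.9% of genes and 0 of the 6. These are matches of letters, and no binding was measured in these samples.

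Levels of the 10 genes were compared as RPKM, the scaled CPM divided by the listed length in kilobases. In the DMSO library the adaptor and the protease stood highest, PYCARD at 69.5 RPKM and CASP1 at 30.4, followed by NLRP3 at 14.2 and GSDMD at 6.26. The counting intervals of these 4 did not overlap. NLRC4 at 1.33 RPKM, NLRP12 at 0.905, NAIP at 0.678 and IL1B at 0.547 came next, and in this run the intervals of neighbours overlapped. NLRP1 at 0.141 and AIM2 at 0.0581 were the lowest, with overlapping intervals. NLRP12 was thus one of several sensors at a low level in vehicle-treated cells. At 50 nM it stood at 2.49 RPKM and at 100 nM at 3.89 (3.55 to 4.25), and its interval overlapped neither neighbour in the order at either dose. The first 4 genes kept their order in all 3 libraries.

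**Figure D1:**
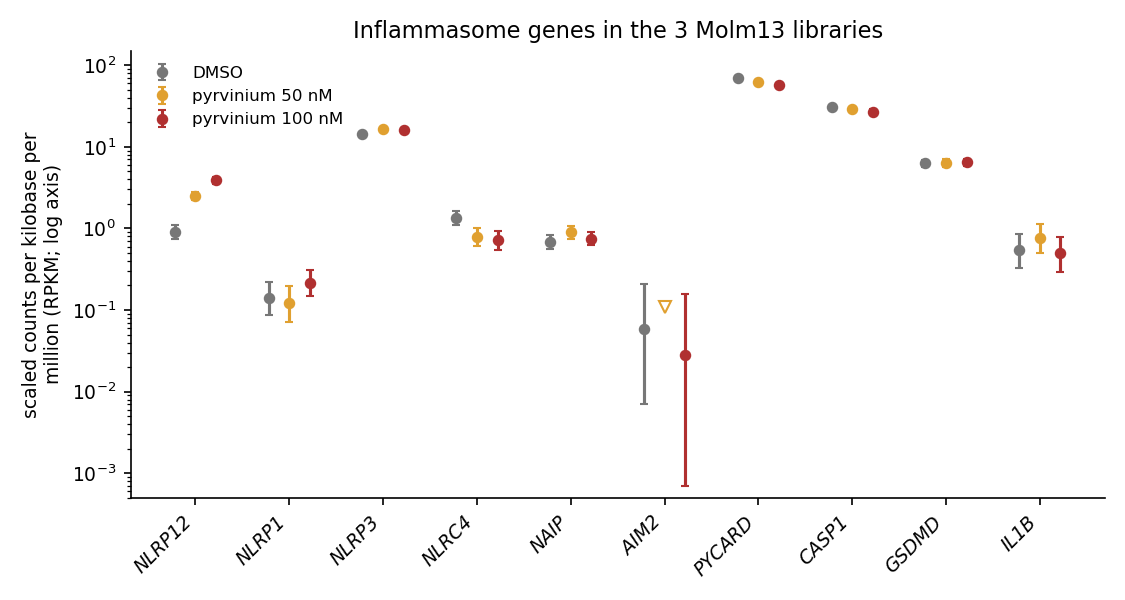
Level of each of the 10 genes in the DMSO, 50 nM and 100 nM libraries, as RPKM on a log axis. Points are single libraries and bars are 95% exact Poisson intervals, and the open triangle is the upper bound for AIM2 at 0 counts in the 50 nM library. NLRP12 stands at 0.905, 2.49 and 3.89, while PYCARD, CASP1, NLRP3 and GSDMD keep the highest places in each library.

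A gene was called when an exact binomial test of its counts, adjusted over all 12879 genes by Benjamini-Hochberg, gave at most 0.05 and the libraries differed at least 2-fold. Of the 8 tested genes other than NLRP12, 0 were called higher and 0 lower at 100 nM, where 1.84% of all genes tested were called higher and 0.512% lower. At 50 nM the counts were again 0 and 0, against 0.784% and 0.28% of all genes. By the counting interval alone, 1 of the 8 lay above 0 and 3 below 0 at 100 nM, against 24% and 25.3% of all genes. At 50 nM, 2 lay above 0 and 2 below 0, against 18.6% and 18.5%. For these 8 the median log2 fold changes at the higher and lower dose were -0.05 and -0.02, beside -0.0023 and 0.00071 over all genes tested. The shares of genes called amount to less than 1 gene in 8, so 0 calls is near the background.

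**Figure D2:**
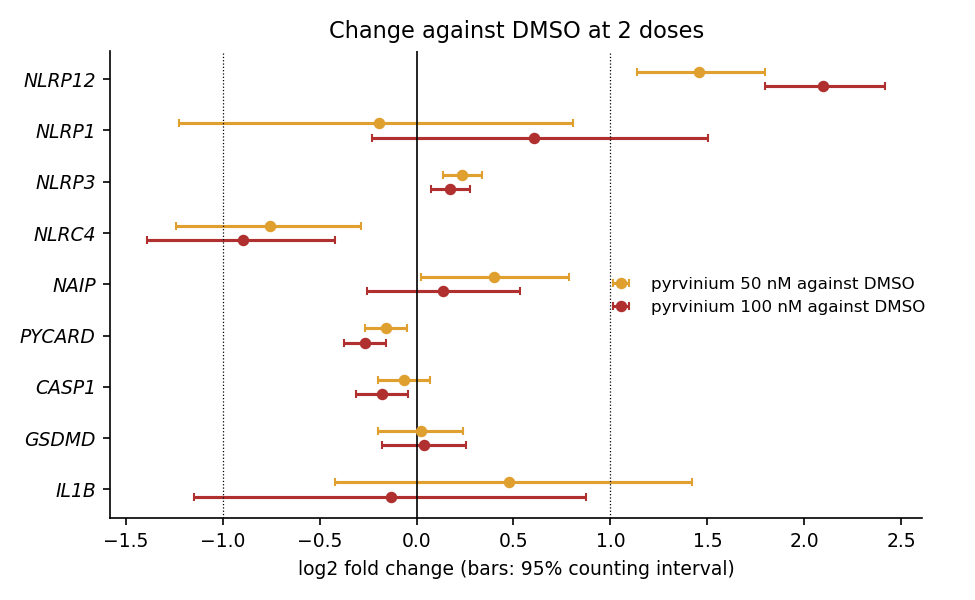
Log2 fold change against DMSO of the 9 genes that passed the count filter, at 50 nM and 100 nM, with 95% counting intervals as bars. Dotted lines mark a 2-fold difference. NLRP12, the gene picked for its rise, lies at 1.46 and 2.10, and the other 8 points at each dose lie between the dotted lines.

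Among the other sensors, NLRP3, which responds to potassium efflux and many forms of membrane damage, had 1479, 1701 and 1736 counts in the DMSO, 50 nM and 100 nM libraries. Both treated libraries were slightly higher, with log2 fold changes of 0.24 (0.13 to 0.34) at 50 nM and 0.17 (0.07 to 0.28) at 100 nM. The adjusted p of the exact binomial test was 4.6e-05 at 50 nM and 0.0023 at 100 nM, at a size well under 2-fold.

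NLRC4, the adaptor-like receptor that NAIP proteins activate when they bind bacterial flagellin or secretion system proteins, had 104, 60 and 58 counts. It was at 59.3% of the DMSO level at 50 nM and at 53.8% at 100 nM. The log2 fold changes were -0.75 (-1.24 to -0.29) and -0.89 (-1.39 to -0.42), with adjusted p of 0.0057 and 0.00044 by the exact binomial test. It missed the 2-fold threshold at both doses, and it was the gene of the 9 with the lowest fold change. NAIP had 103, 133 and 118 counts and log2 fold changes of 0.40 (0.02 to 0.79) and 0.14 (-0.25 to 0.53). NAIP has near-identical partial copies in its own region of chromosome 5, and how the counting treated reads that fit several places is not stated, so its counts are uncertain. An unnamed gene on the opposite strand overlaps NAIP by 145 bases and had 2 counts in each library.

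NLRP1, a sensor that is activated when its own cleaved fragment is freed, had 20, 17 and 32 counts. Its log2 fold change was -0.19 at 50 nM and 0.61 at 100 nM, where the interval from -0.23 to 1.5 spans no difference as well as more than a doubling. AIM2, the sensor of cytosolic double-stranded DNA, had 2, 0 and 1 counts. All 3 values are at or under the floor, so no fold change is given, and a difference was not detectable at this depth.

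Of the shared machinery downstream of the sensors, PYCARD, CASP1 and GSDMD had more counts and narrower intervals than NLRP1, NLRC4 and NAIP. PYCARD, which encodes the adaptor ASC, had 1494, 1309 and 1294 counts. Both treated libraries were lower, at 89.7% of DMSO at 50 nM and at 83.3% at 100 nM, with log2 fold changes of -0.16 (-0.26 to -0.05) and -0.26 (-0.37 to -0.16). Its adjusted p was 0.019 and 8e-06 by the exact binomial test. CASP1, the protease, had 955, 892 and 877 counts and log2 fold changes of -0.06 (-0.20 to 0.07) and -0.18 (-0.31 to -0.05). Reads of CASP1 may also fit CARD16, a neighbouring gene that resembles its first exons, which had 161, 141 and 137 counts.

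GSDMD, whose product forms the pyroptotic pore, had 344, 341 and 368 counts. At 100 nM its log2 fold change was 0.04, with an interval from -0.18 to 0.26. IL1B, the cytokine precursor that caspase-1 cleaves, had 19, 26 and 18 counts. These few counts gave log2 fold changes of 0.48 (-0.42 to 1.42) and -0.13 (-1.15 to 0.87), intervals wide enough to hold a 2-fold difference. The adaptor, the protease and the pore gene thus differed from DMSO by well under 2-fold in both treated libraries, while the cytokine gene was near the limit of what could be measured.

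Of the 17 other NOD-like receptor genes on the list, 7 passed the count filter and 7 had 0 counts in all libraries. The most counted were NLRC5, the activator of MHC class I genes, NLRC3 and NLRX1, a mitochondrial receptor. NLRC5 had 1188, 1178 and 1092 counts. The log2 fold change was -0.18 at 100 nM. NLRC3, an inhibitory receptor, had 1130, 998 and 1167 counts, and NLRX1 had 356, 377 and 413. One gene of the 7 was called higher at 100 nM, beside 1.84% of all genes tested. This was CIITA, the master regulator of MHC class II genes, with 8, 19 and 22 counts. At 100 nM its log2 fold change was 1.35 (0.18 to 2.78), with an adjusted p of 0.04 by the exact binomial test, and with 5 counts added per library it was 0.997 and no longer called. In the exact test of edgeR the call was also lost once the biological coefficient of variation was assumed to be 0.1. The median of the 7 was -0.01 at 100 nM.

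The next list held 20 regulators and other sensors, of which 19 were found in the files and 15 passed. None of the 15 was called in either direction at 100 nM by the exact binomial test. Of all genes tested, 1.84% were called higher and 0.512% lower at this dose, so no call among 15 is near the background. The counting intervals of the 15 lay below 0 for 8 and above 0 for 3, beside 25.3% and 24% of all genes tested. The median log2 fold change of the 15 was -0.23. HSP90AB1, a chaperone that holds NLRP3 ready, had 85141, 82732 and 84318 counts. CARD8, a sensor related to NLRP1, had 3354, 3558 and 4133 counts. Its difference from DMSO at 100 nM was 0.24 (0.18 to 0.31) on the log2 scale. DPP9, a protease that restrains NLRP1 and CARD8, had 2946, 2590 and 2622 counts. The log2 fold change was -0.23 (-0.30 to -0.15) at 100 nM.

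Further genes of that list are given here for their size, with the choice made once their values were known. TXNIP, a thioredoxin-binding protein linked to NLRP3, had 2017, 982 and 1214 counts and was the only gene of the list called at 50 nM, with a log2 fold change of -1.004, which lies at the 2-fold threshold, beside 0.28% of all genes called lower. That call was lost at an assumed coefficient of variation of 0.2. At 100 nM it was -0.79. P2RX7, the ATP-gated channel upstream of NLRP3, had 827, 911 and 1273 counts. Its difference from DMSO at 100 nM was 0.56 (0.44 to 0.69) on the log2 scale. IFI16, a DNA sensor related to AIM2, had 366, 275 and 266 counts, and MEFV, which encodes the sensor pyrin, had 152, 110 and 118. Both treated libraries were lower than DMSO for IFI16 and MEFV.

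Of 19 pyroptosis effectors and genes of the interleukin 1 family, 9 passed. None of the 9 was called in either direction at either dose by the exact binomial test. Over all genes tested, 1.84% were called higher and 0.512% lower at 100 nM, and 0.784% and 0.28% at 50 nM. No call among 9 genes is near these shares. CASP4, the caspase that senses cytosolic lipopolysaccharide, had 1064, 1017 and 1033 counts. IL1RAP, a shared receptor chain, had 678, 645 and 636 counts, and CASP8, a caspase of cell death that can also process interleukin 1 beta, had 653, 558 and 552. The cytokine genes IL18 and IL1A and the antagonist are added here with their values known. IL18, whose product caspase-1 matures, had 4, 6 and 11 counts, and IL1A had 0 in each library. IL1RN, the secreted antagonist of interleukin 1, had 273, 212 and 207 counts. The log2 fold change was -0.46 (-0.72 to -0.19) at 100 nM. The median of the 9 was -0.15 at 50 nM and -0.10 at 100 nM.

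NLRP12 has been studied as a regulator of Toll-like receptor and NF-kappaB signalling, and 32 of 38 genes of that list passed. One was called lower at 100 nM and 0 higher, beside 0.512% and 1.84% of all genes tested. It was CCL3, a chemokine gene, with 21, 9 and 8 counts and a log2 fold change of -1.40 (-2.83 to -0.22), with an adjusted p of 0.035 by the exact binomial test. At 50 nM 1 gene was called lower, where 0.28% of all genes were, namely RELB, a subunit of NF-kappaB, with 57, 25 and 42 counts and a log2 fold change of -1.14, while its value at 100 nM was -0.49 (-1.11 to 0.10). Both calls were lost at an assumed coefficient of variation of 0.1. By the counting interval at 100 nM, 6 of the 32 lay above 0 and 12 below 0, beside 24% and 25.3% of all genes, and the median was -0.10. IRAK3, an inhibitory member of the IRAK family, had 3879, 3855 and 4219 counts. IKBKB, a kinase of the inhibitor of NF-kappaB, had 3000, 3301 and 3510, and IRAK1, a kinase that MYD88 recruits, had 3301, 2907 and 2944.

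RELB and the following genes of this list were named after their values were seen, for their link to NLRP12 or their size. The choice by size is not complete. TLR6, TLR4 and TICAM1 had lower log2 fold changes at 100 nM than MYD88 and are not described further. MAP3K14, the kinase of the noncanonical pathway that NLRP12 has been described to restrain, had 232, 199 and 192 counts. Its difference from DMSO at 100 nM was -0.33 (-0.61 to -0.05) on the log2 scale. TNFAIP3, an inhibitor of NF-kappaB signalling that is itself induced by NF-kappaB, had 1372, 1660 and 2127 counts. The log2 fold change was 0.58 (0.48 to 0.67) at 100 nM. MYD88, the adaptor of most Toll-like receptors, had 1640, 1389 and 1248 counts. Its difference from DMSO at 100 nM was -0.45 (-0.56 to -0.34) on the log2 scale. TNF had 677, 532 and 603 counts, and IL6 had 0 in each library.

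**Figure D3:**
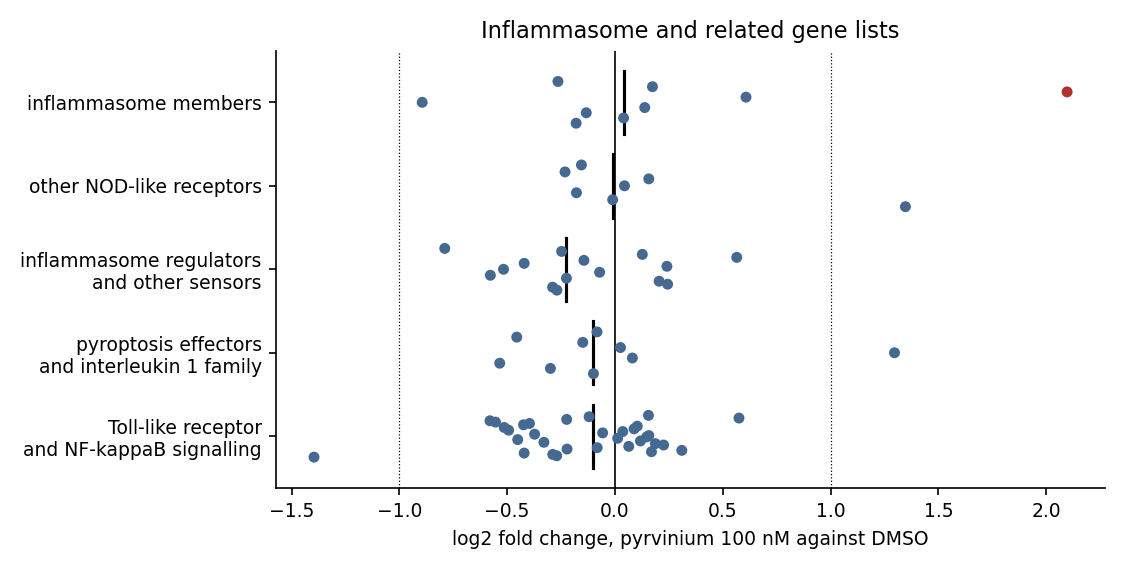
Log2 fold change at 100 nM against DMSO of every gene that passed the count filter, in 5 lists. Each point is 1 gene (NLRP12 in red), heavy vertical bars are medians and dotted lines mark a 2-fold difference. NLRP12 at 2.10 lies farthest right. The medians of the other 4 lists lie between -0.23 and -0.01.

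Few genes around NLRP12 had any counts. Within 250 kb of the gene, 60 other genes were listed, of which 50 are microRNA genes, which a library of messenger RNA captures poorly. All but 2 of the 60 had 0 counts in every library. ZNF331 had 0, 1 and 0 counts. MYADM, a myeloid-associated membrane protein gene 41963 bases away, was the only neighbour to pass the filter, with 1749, 1638 and 1776 counts and log2 fold changes of -0.06 and -0.03. Among the others, CACNG6, CACNG7, CACNG8, VSTM1, TARM1, DPRX and LOC284379 were at 0 counts in all 3 libraries.

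The genes with the profile most like that of NLRP12 were taken as those at the smallest distance from it over the 2 log2 fold changes, among the 11049 genes with at least 50 counts in the highest library. The 5 nearest were CHAC1, SERPINI1, CTH, TSC22D3 and ADM2. CHAC1, which encodes an enzyme that degrades glutathione, had 88, 219 and 382 counts and log2 fold changes of 1.34 and 2.05, at a distance of 0.12. SERPINI1, a serine protease inhibitor gene, had 31, 75 and 131 counts and log2 fold changes of 1.30 and 2.005. CTH, an enzyme of cysteine synthesis, had 241, 591 and 919 counts, and its log2 fold changes were 1.33 and 1.87. TSC22D3, which encodes the glucocorticoid-induced leucine zipper, had 112, 346 and 592 counts with log2 fold changes of 1.66 and 2.34. ADM2, a peptide hormone gene, had 63, 141 and 246 counts and was the farthest of the 5, at 1.19 and 1.90. The counting intervals of all 5 overlapped that of NLRP12 at both doses, which their choice by closeness in these same values all but fixed. Of the promoters of these 5 genes, that of CHAC1 alone held the CARE letters in the 250 bases searched, beside 3.89% of all genes. Sites elsewhere in these genes were not searched. The likeness is over 2 values that share the DMSO library.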

How the data were processed

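RNA of Molm13 cells was sequenced in 1 library per condition (DMSO, 50 nM and 100 nM pyrvinium, 6 h). One label writes the higher dose without its prefix, and the 100 nM of the sample titles was used. The authors built stranded mRNA libraries, mapped the read pairs with Rsubread (hg19) and deposited raw whole-number counts per gene. Whether counting used the strand is not given in the sources used here. A deposited table of the authors' comparisons (EBSeq posterior probabilities, fold changes and condition means) was not used.

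Library sizes were scaled by TMM (edgeR 4.0.16, R 4.3.3). Genes reaching 10 counts in any library entered a two-sided exact binomial test (scipy 1.17.1) with Benjamini-Hochberg adjustment, and called when the adjusted p was no more than 0.05 and the difference 2-fold or more. For log2 fold changes, 0.5 was added to each count. Fold intervals are 95% Clopper-Pearson and level intervals exact Poisson, for counting error only. Precision follows each gene's own counts, which are printed beside it. The procedure was tested on simulated counts with Poisson error only, so that check does not cover the spread between replicates. Symbols came from RefSeq (GRCh38.p14) for 23696 of 25702 identifiers, and promoter sequences from the same source.

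The members, lists and rule were chosen with earlier results of these data known. Named by rule were the members, the genes of each list called at 100 nM, the 3 with the most counts per list, the genes within 250 kb of NLRP12 and its 5 nearest profiles. Some genes that this rule names are not reported here. Alternatives tried were scaling by DESeq2 1.42.0 or by total counts, no filter or a minimum of 50 counts, 5 counts added, a 1.5-fold threshold, and the exact test of edgeR at assumed values of the biological coefficient of variation.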

Additional observations from a re-analysis of the deposited data

How the results depend on the processing

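The log2 fold changes of the 9 genes that passed the filter kept their direction under the alternatives run for them. NLRP1 and IL1B have no value with the minimum of 50 counts. Of the 8 genes with a test, NLRC4 alone changed its call, as given below. They moved by at most 0.000835 with DESeq2 size factors, 0.00355 with total counts and 0.0992 with 5 counts added. NLRP12 ranged from 2.05 to 2.10 at 100 nM and from 1.42 to 1.46 at 50 nM. With a 1.5-fold threshold, 1 of the other 8 genes was called lower at 100 nM and 1 at 50 nM, NLRC4 at both doses, against 0 with the 2-fold threshold. Over all genes, 303 were called at 100 nM and 137 at 50 nM. With the biological coefficient of variation assumed to be 0.1, edgeR's exact test called 137 and 27, at 0.2 it called 12 and 0, and at 0.4 it called 0 and 0. The calls of CIITA, CCL3 and RELB were lost at 0.1 and above and that of TXNIP at 0.2 and above, in settings added after the data were seen. No paired analysis was possible because each condition has 1 library, and for the same reason no library could be left out.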
